A study of Homo sapiens with 6 samples.

Results

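The genes described here are the 4 genes for thrombospondins 1 to 4 (THBS1, THBS2, THBS3 and THBS4) and the genes for CD47 and SIRPA. CD47 is a cell surface receptor of thrombospondin 1, and SIRPA is the counter-receptor of CD47. All 6 genes were taken by gene name from a table of 58825 genes, and each of the 6 names matched 1 row. Levels were measured in HK-2 cells, an established line of human kidney tubular epithelial cells, by sequencing of poly(A) RNA. The Control group was 3 libraries of untreated cells, and the OX-LDL group was 3 libraries of cells given 25 µg/mL of oxidized low-density lipoprotein (OX-LDL) for 48 h. The study's methods describe a period of starvation in low serum before OX-LDL was added, and no time is given for the Control cells. The comparison of the groups asks how the RNA of the thrombospondins, of the receptor and of the counter-receptor differed in cells exposed to the lipoprotein.

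Thrombospondins are calcium-binding glycoproteins that cells secrete into the surrounding matrix, where they bind receptors, proteases and growth factors. Thrombospondins 1 and 2 form trimers and carry properdin-like (type 1) repeats, whereas thrombospondins 3 and 4 form pentamers and lack those repeats. CD47 is a membrane protein that binds thrombospondin 1 and, on contact with another cell, SIRPA, whose signal in phagocytes restrains engulfment. Thrombospondin 1 is also known for activating latent TGF-beta and for limiting nitric oxide signalling through CD47, and in the kidney it has been studied in tubular injury and fibrosis.

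Total counts were between 62561347 and 76797607 per library. The deposited counts rose in steps of about 4 per read pair, which gives 15640337 to 19199402 read pairs, and a gene with at most 12 counts (3 read pairs) in a library was taken as not detected in it. Levels are given as FPKM, the fragments assigned to a gene divided by its transcript length and by the size of the library, so that levels of different genes can be compared. Changes are log2 fold changes of OX-LDL over Control with their standard errors (SE), fitted with edgeR's quasi-likelihood test on the counts of 19510 genes, those that averaged 0.1 FPKM or more. Adjusted p-values are Benjamini-Hochberg values over all those genes, and 2991 of them (15.3%) had an adjusted p under 0.05. The libraries carried markers of a simple epithelium, with EPCAM at 51.2 ± 3.7 FPKM in Control and 53.1 ± 3.1 in OX-LDL (SD, n = 3, adjusted p = 0.58), the keratin gene KRT8 at 37.5 and 65.4 FPKM (log2 fold change 0.83, adjusted p = 0.0116) and KRT18 at 39.4 and 58.3 FPKM (0.59, adjusted p = 0.123), and of the renal lineage, with PAX8 at 46.6 and 19.4 FPKM (log2 fold change -1.23, adjusted p = 0.0182, called in 2 of the 6 fits without a library). The proximal tubule receptor gene LRP2 had 0 counts in all 6 libraries, CUBN, AQP1, ANPEP and SLC34A1 were under the tested minimum, and CDH1 was near 0.1 FPKM. The brush border genes GGT1 (8.41 and 16.6 FPKM, adjusted p = 0.336) and MME (3.73 and 3.21 FPKM, adjusted p = 0.377) were expressed. They were the only proximal tubule genes among the markers read that reached the tested minimum. Myeloid markers other than CD68 and CD14 were under the tested minimum too, with AIF1, TYROBP and CD163 at 0 counts throughout, and the summed level of all 10 was 3.17 to 7.82 FPKM in Control and 9.21 to 14.2 in OX-LDL, most of it CD68 (adjusted p = 0.0858), whose part in the results below was not tested. The summed level of 8 endothelial markers was 0.247 to 0.407 FPKM in Control and 0.278 to 0.387 in OX-LDL, and that of 8 fibroblast markers, most of it LUM, was 10.1 to 12.01 and 8.82 to 14.1. Platelet markers, of interest because platelets store thrombospondin 1, summed to at most 0.182 FPKM, and PF4, PPBP and GP9 had 0 counts.

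The start regions of THBS1 and CD47, the ligand and the receptor whose RNA both rose, are shown because they are the sequences next to which that RNA begins. Each is the 250 bases before the start site in RefSeq (GRCh38.p14), written 5′ to 3′ on the gene's own strand. THBS1 lies on the plus strand (chr15:39580829-39581078) and CD47 on the minus strand (chr3:108091032-108091281). Capitals mark every match, on either strand, to CCAAT or to the GC box GGGCGG, and the other 4 motifs searched (the TATA box TATAAA, the E-box CACGTG, the AP-1 site TGANTCA and the cAMP response half-site TGACGT) had no match in either window.
THBS1: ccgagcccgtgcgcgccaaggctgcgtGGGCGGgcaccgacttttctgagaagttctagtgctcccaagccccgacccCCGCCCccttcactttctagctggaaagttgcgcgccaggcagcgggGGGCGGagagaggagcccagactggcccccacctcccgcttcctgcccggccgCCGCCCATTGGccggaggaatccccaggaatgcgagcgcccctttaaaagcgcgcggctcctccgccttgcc
CD47: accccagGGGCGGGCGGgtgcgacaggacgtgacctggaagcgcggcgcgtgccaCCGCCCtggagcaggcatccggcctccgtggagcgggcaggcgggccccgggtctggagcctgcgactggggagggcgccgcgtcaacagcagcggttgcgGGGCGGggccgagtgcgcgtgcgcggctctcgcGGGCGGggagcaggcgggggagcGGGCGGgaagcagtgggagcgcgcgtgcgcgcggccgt
The THBS1 window held 4 GC boxes, whose first bases lay 223, 172, 125 and 72 bases before the start site, and 1 CCAAT match 66 bases before it that followed the nearest GC box without a gap. The CD47 window held 6 GC boxes, at 243, 239, 195, 94, 61 and 38 bases before the start site, of which the first pair overlap, and no CCAAT match. GC boxes occurred in 42.6% and CCAAT in 32.0% of the 35116 promoter windows of the same length. The GC content was 69.6% in THBS1 and 79.6% in CD47, against a median of 58.0% over all windows. The THBS1 start site in RefSeq was the first base of the deposited gene, while that of CD47 lay inside the deposited gene, at 108091031 against a deposited start of 108091862.

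THBS1 RNA rose 2.86-fold in OX-LDL, THBS2 and CD47 RNA rose by smaller amounts, and neither THBS3 nor SIRPA passed the test. Of the 5 members that could be tested, 3 had an adjusted p under 0.05, all of them higher in OX-LDL. Among all genes tested, 7.91% were called higher and 7.42% lower. All 5 were above 0.1 FPKM in each group, so none entered the test through 1 group alone. In 4 of the 5 the 3 OX-LDL libraries did not overlap the 3 Control libraries in FPKM, which was so in 37.2% of all genes tested. By the study's own limits, a change beyond 2-fold up or 0.5-fold down with an unadjusted p under 0.05, only THBS1 was called, against 6.36% of all genes tested. RNA was measured from whole cultures, in which a change in the number of cells of 1 kind and a change in RNA per cell cannot be told apart.

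**Figure D1:**
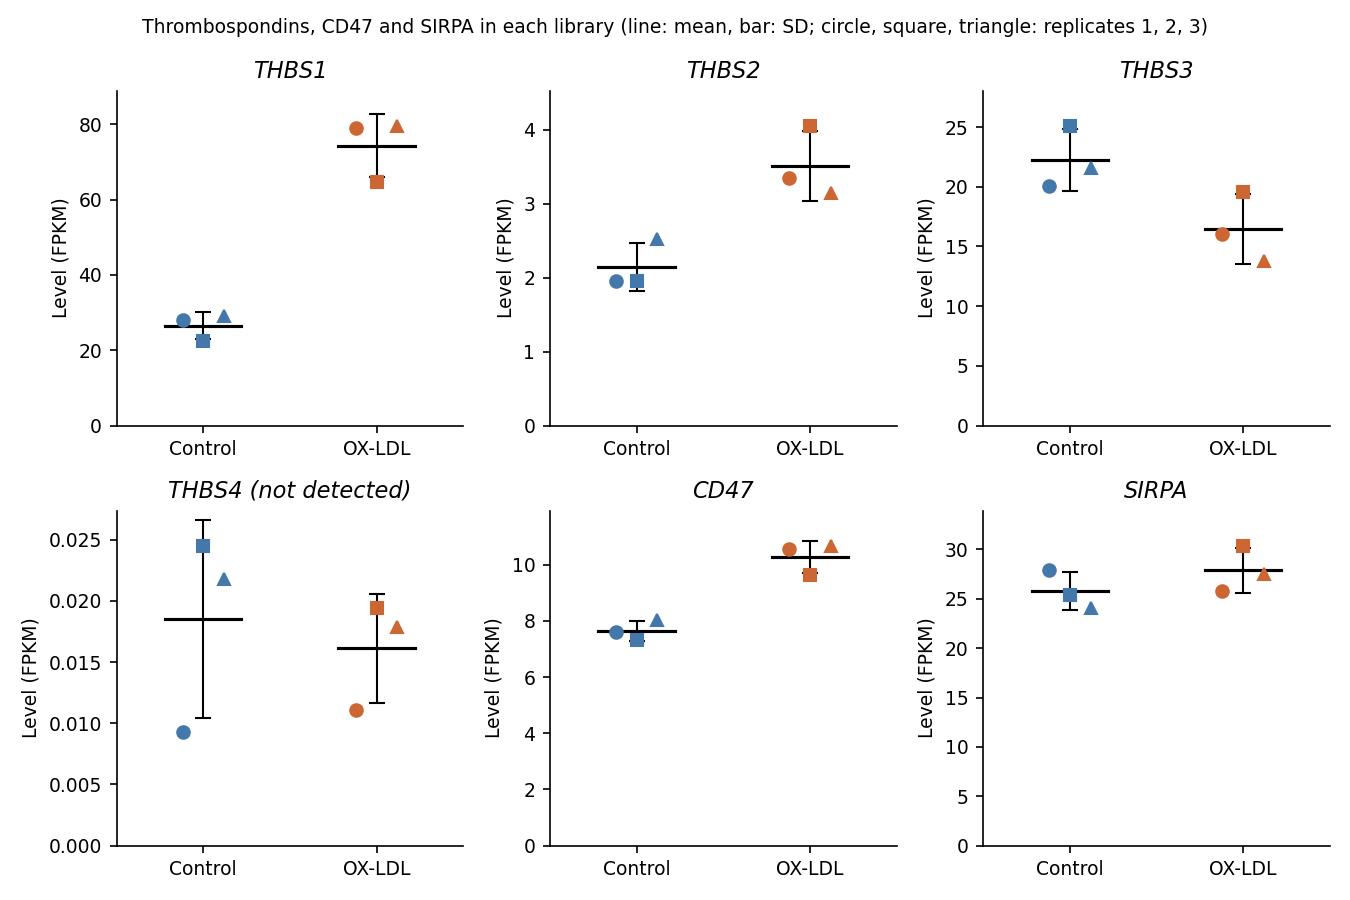
Level in FPKM (vertical axes, from 0, each with its own scale) of the 6 genes in the 3 Control and 3 OX-LDL libraries. Points are libraries, lines are group means and bars are 1 SD. The OX-LDL points lie above all Control points for THBS1, THBS2 and CD47 and below them for THBS3, the groups overlap for SIRPA, and every THBS4 point is at or under 0.0244 FPKM.

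THBS1 (ENSG00000137801, chr15:39581079-39599466, plus strand) encodes the thrombospondin with the widest known set of receptors. Its level was 28.1, 22.6 and 29.1 FPKM in Control replicates 1 to 3 and 79.0, 64.6 and 79.4 FPKM in OX-LDL replicates 1 to 3. Every OX-LDL library stood above every Control library, and the lowest OX-LDL value was 2.22 times the highest Control value. The mean went from 26.6 ± 3.50 to 74.3 ± 8.45 FPKM (SD, n = 3 per group). On the counts, which were 22601, 18453 and 21675 in Control and 53394, 53710 and 65883 in OX-LDL, the log2 fold change was 1.51 (SE 0.13, 95% interval 1.20 to 1.83), a 2.86-fold rise (adjusted p = 0.0018). THBS1 was already among the more abundant transcripts, at the 93.1th percentile of tested genes in Control, and it stood at the 98.2th in OX-LDL. Ranked by fitted rise, it was 583rd of all genes tested and 17th of the 3925 genes that averaged 10 FPKM or more. It was called in all 10 alternative settings and without each library in turn, with log2 fold changes between 1.40 and 1.61 when a library was left out.

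THBS2 (ENSG00000186340, chr6:169215780-169254044, minus strand) encodes the thrombospondin closest to thrombospondin 1 in domain structure. It was measured at 1.96, 1.96 and 2.52 FPKM in the Control libraries and at 3.35, 4.05 and 3.14 FPKM in the OX-LDL libraries. The groups did not overlap, but the lowest OX-LDL library was only 1.25 times the highest Control library. The mean went from 2.15 ± 0.325 to 3.52 ± 0.473 FPKM (n = 3), with a log2 fold change of 0.74 (SE 0.15, 95% interval 0.38 to 1.11, adjusted p = 0.0228). THBS2 was a transcript of middling abundance, at the 49.5th percentile of tested genes in Control and the 59.7th in OX-LDL. Its call depended on which libraries were used: the adjusted p was 0.0711 without Control replicate 1, 0.0822 without Control replicate 2, 0.0622 without OX-LDL replicate 1 and 0.0517 without OX-LDL replicate 3. In all of these fits the direction was still upward, with log2 fold changes between 0.63 and 0.87 over the 6 libraries left out.

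THBS3 (ENSG00000169231, chr1:155195588-155207917, minus strand) encodes one of the pentameric thrombospondins. Its level was 20.0, 25.1 and 21.6 FPKM in Control and 16.0, 19.6 and 13.8 FPKM in OX-LDL. All 3 OX-LDL libraries stood below all 3 Control libraries, by a margin that was narrow between OX-LDL replicate 2 and Control replicate 1. The mean was 22.2 ± 2.57 FPKM in Control and 16.5 ± 2.89 in OX-LDL, and the log2 fold change of -0.40 (SE 0.14, 95% interval -0.74 to -0.06) did not pass the test (unadjusted p = 0.0263, adjusted p = 0.110). Without OX-LDL replicate 2, the highest of its group, the log2 fold change was -0.54 and the adjusted p 0.0349. In the other 5 fits without a library the adjusted p was between 0.134 and 0.283. THBS1 and THBS3, at similar levels in Control, thus stood far apart in OX-LDL.

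THBS4 (ENSG00000113296, chr5:79991311-80083287, plus strand), the other pentameric member, was not detected. It had 4, 11 and 10 counts in the Control libraries and 4, 9 and 8 in the OX-LDL libraries, all at or under the 12 counts that mark the detection limit. It was left out of the test by its level, and an edgeR fit without a minimum gave an adjusted p of 0.916. At this depth no difference between the groups could be seen for THBS4, and no fold is given. COMP, the remaining gene of the thrombospondin family and known from cartilage, had 0 counts in all 6 libraries and was not detected.

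CD47 (ENSG00000196776, chr3:108043091-108091862, minus strand) rose by less than its ligand. Its level was 7.59, 7.32 and 8.03 FPKM in Control and 10.6, 9.63 and 10.7 FPKM in OX-LDL. The libraries of each group lay close together, with a coefficient of variation of 4.74% in Control and 5.52% in OX-LDL, and the groups did not overlap. The mean went from 7.65 ± 0.362 to 10.3 ± 0.567 FPKM (n = 3). The counts were 5485, 5373 and 5385 in Control and 6414, 7195 and 7939 in OX-LDL, and the log2 fold change was 0.46 (SE 0.08, 95% interval 0.27 to 0.64), a 1.37-fold rise (adjusted p = 0.0125). The upper end of that interval, 1.56-fold, is under the fold change of 2 that the study set for a differentially expressed gene. The adjusted p was 0.0518 when Control replicate 2 was left out and 0.0556 when OX-LDL replicate 3 was, and it was under 0.05 without each of the other 4 libraries.

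SIRPA (ENSG00000198053, chr20:1894167-1940592, plus strand) encodes the receptor on phagocytes and some other cells that CD47 engages. In these epithelial cells it was an abundant transcript, at 27.9, 25.3 and 24.1 FPKM in Control and 25.8, 30.3 and 27.5 FPKM in OX-LDL. The groups overlapped, since Control replicate 1 stood above OX-LDL replicates 1 and 3. The mean was 25.8 ± 1.92 FPKM in Control and 27.9 ± 2.26 in OX-LDL (log2 fold change 0.14, SE 0.10, adjusted p = 0.368). The 95% interval of the fold change ran from 0.944 to 1.29, so a change of either sign within those bounds cannot be told from none. The related gene SIRPB1, whose sequence resembles that of SIRPA, had at most 94 counts in a library where SIRPA had at least 9661. Reads that fit both genes were not measured here.

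**Figure D2:**
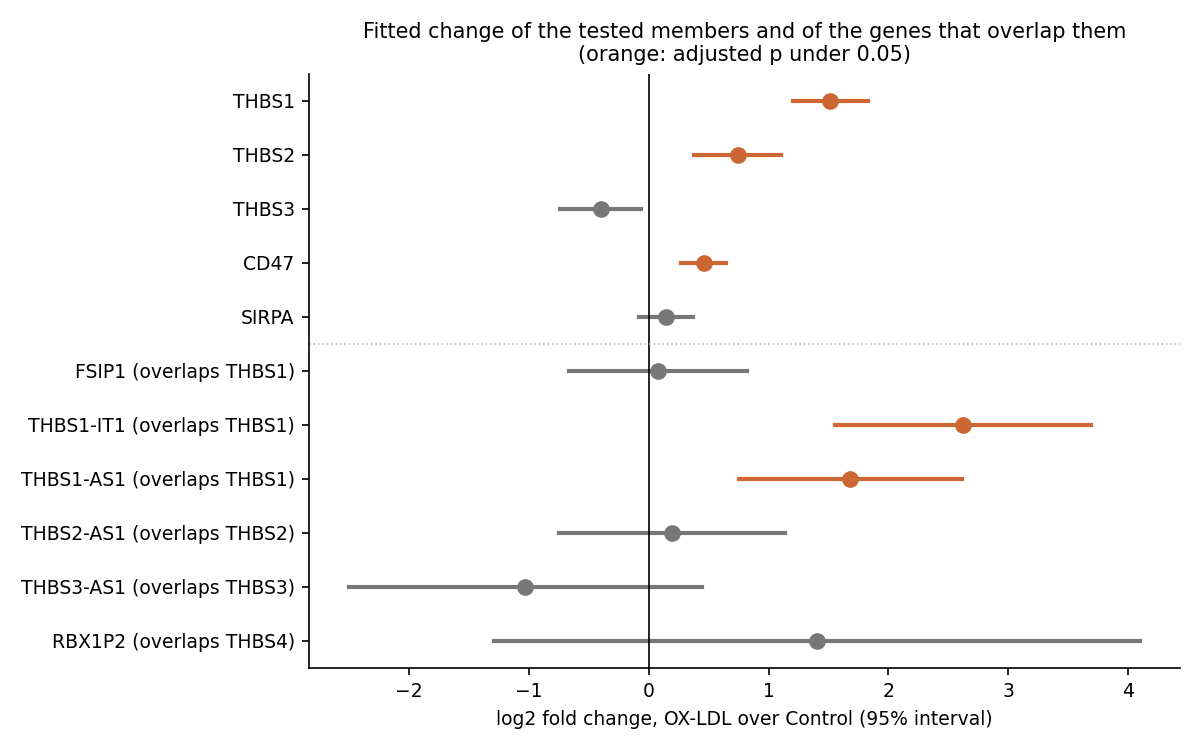
Fitted log2 fold change of OX-LDL over Control (horizontal axis) with its 95% interval for the 5 tested members (above the dotted line) and for the tested genes that overlap a member (below it). THBS1, THBS2 and CD47 have intervals above 0 and an adjusted p under 0.05 (orange), as do THBS1-IT1 and THBS1-AS1, while SIRPA and the remaining overlapping genes have intervals that include 0 and THBS3 one from -0.74 to -0.06.

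Several genes overlap the thrombospondin genes, and a strand setting for the counting is not given in the sources used here, so reads of overlapping genes may have been divided between them. Inside THBS1, the intronic transcript THBS1-IT1 on the same strand had 17, 11 and 7 counts in Control and 75, 76 and 55 in OX-LDL (log2 fold change 2.62, SE 0.45, adjusted p = 0.0131). The antisense transcript THBS1-AS1 had 33, 29 and 52 counts in Control and 128, 87 and 138 in OX-LDL (log2 fold change 1.68, SE 0.39, adjusted p = 0.0329). Both rose with THBS1, and both were small beside it, at no more than 1.76% and 4.15% of its FPKM in any library. FSIP1, a protein-coding gene on the opposite strand, shares 11110 bases with THBS1 and was at 0.334 FPKM in Control and 0.342 in OX-LDL (adjusted p = 0.899). For THBS2, the antisense transcript THBS2-AS1 reached 25.0% of the member's FPKM but only 3.83% of its counts, with a log2 fold change of 0.20 (adjusted p = 0.789). For THBS3, the antisense transcript THBS3-AS1 had 161, 209 and 212 counts in Control and 136, 23 and 106 in OX-LDL (log2 fold change -1.03, SE 0.62, adjusted p = 0.322). It reached at most 4.82% of the member's FPKM and 2.60% of its counts. Of the 3 genes that overlap THBS4, the pseudogene RBX1P2 could be tested (log2 fold change 1.41, adjusted p = 0.465), TRMT112P2 had 0 counts and THBS4-AS1 had counts in OX-LDL replicate 2 alone. RBX1P2, on the same strand as THBS4, had up to 34 counts in a library, against at most 11 for THBS4. No gene of the table overlaps CD47 or SIRPA.

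The order of the 6 levels was looser in Control than in OX-LDL. In Control, THBS1, SIRPA and THBS3 had overlapping ranges, and THBS1 was the highest in replicates 1 and 3 and SIRPA in replicate 2. CD47, THBS2 and THBS4 followed in every library, each below the range of the one before it. In OX-LDL the order was THBS1, SIRPA, THBS3, CD47, THBS2 and THBS4 in all 3 libraries, and no ranges of neighbours overlapped. The ligand that led that order stood level with the counter-receptor in Control.

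Setting the ligand beside its receptor within each library, THBS1 was 3.70, 3.09 and 3.62 times the level of CD47 in Control and 7.48, 6.71 and 7.46 times in OX-LDL. The ratio was higher in every OX-LDL library, by 1.06 on the log2 scale or 2.08-fold. A two-sided exact permutation test gave p = 0.1, which is the smallest value that 3 libraries against 3 allow. The ratio of THBS1 to SIRPA was 1.01, 0.891 and 1.21 in Control and 3.06, 2.13 and 2.89 in OX-LDL, without overlap (log2 difference 1.37, exact permutation p = 0.1). For receptor against counter-receptor, CD47 was 0.272, 0.289 and 0.333 times the level of SIRPA in Control and 0.409, 0.318 and 0.388 times in OX-LDL, with overlapping groups (log2 difference 0.31, exact permutation p = 0.2).

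Summed over the 4 thrombospondin genes, the level was 51.0 ± 1.96 FPKM in Control and 94.3 ± 5.39 in OX-LDL (n = 3), 1.85 times as high (exact permutation p = 0.1, two-sided, the smallest possible). THBS1 made up 56.1, 45.5 and 54.6% of that sum in Control and 80.3, 73.2 and 82.4% in OX-LDL. The mixture was therefore close to an even one of THBS1 and THBS3 in Control and mostly THBS1 in OX-LDL, with means of 52.1 ± 5.73% and 78.6 ± 4.80% (exact permutation p = 0.1). The THBS3 share was 43.7 ± 5.89% in Control and 17.6 ± 4.08% in OX-LDL (exact permutation p = 0.1). THBS1 and THBS3 made up most of the sum in every library, so the lower THBS3 share restates the higher THBS1 share. It is not a separate result, and THBS3 itself did not pass the test (log2 fold change -0.40, adjusted p = 0.110). On counts, the THBS1 share differed by 19.7 percentage points between the groups, against 26.6 on FPKM. The THBS2 share was 4.20 ± 0.467% and 3.75 ± 0.728% and its groups overlapped (exact permutation p = 0.4).

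**Figure D3:**
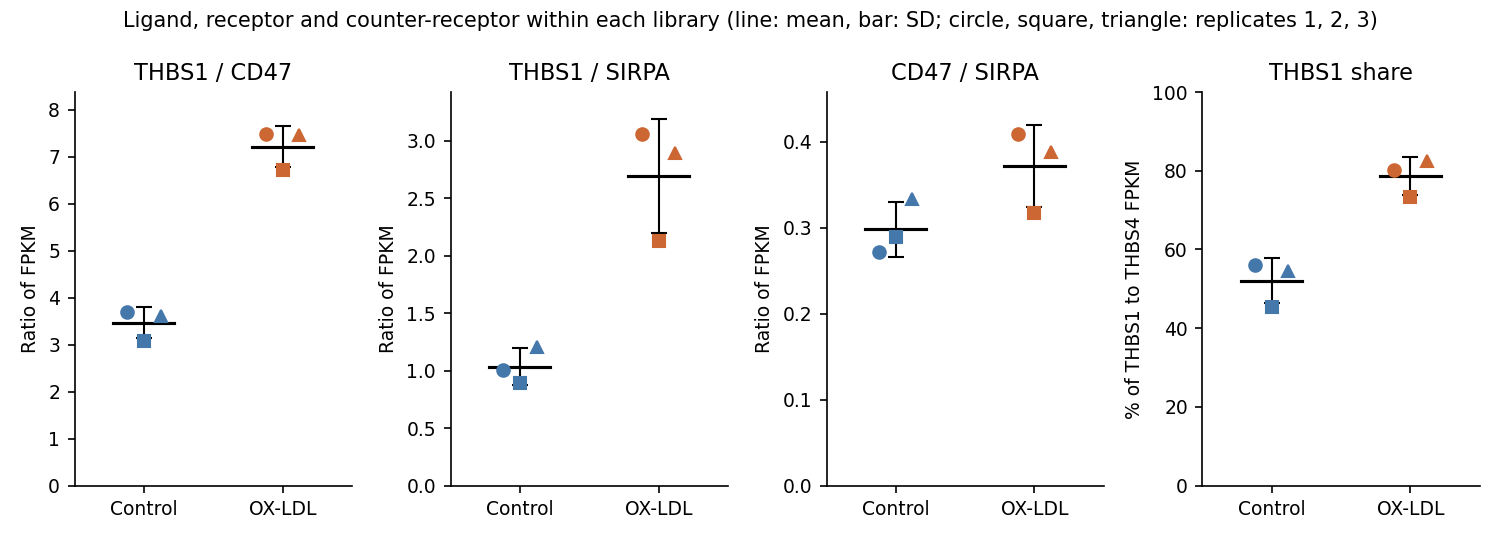
Ratios of FPKM within each library (first 3 panels) and the THBS1 share of summed thrombospondin FPKM in percent (last panel), for 3 Control and 3 OX-LDL libraries. Points are libraries, lines are means, bars are 1 SD and all axes start at 0. THBS1 over CD47, THBS1 over SIRPA and the THBS1 share are higher in all 3 OX-LDL libraries than in the highest Control library, while the CD47 over SIRPA groups overlap.

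Around the members, 137 further genes in 7 lists were read, of which 91 reached the tested minimum. The counts of genes called are set beside the 15.3% called among all genes tested and beside the median log2 fold change of all genes tested, which was -0.0043. Of 17 thrombospondin receptors and binding partners, 15 were tested, 4 rose and 2 fell, with a median log2 fold change of 0.30. Those that rose were SDC1, a heparan sulfate proteoglycan (31.0 to 47.7 FPKM, log2 fold change 0.65, adjusted p = 0.00509), CALR, the calreticulin that pairs with LRP1 at the cell surface (301 to 434 FPKM, 0.56, adjusted p = 0.00554), LRP8, a receptor of the LDL receptor family (0.88, adjusted p = 0.0113), and the integrin subunit ITGA4 (1.03, adjusted p = 0.0416). The integrin subunits ITGB3 (30.3 to 17.9 FPKM, -0.73, adjusted p = 0.0168) and ITGA3 (-0.48, adjusted p = 0.0208) fell. ITGAV, the partner of ITGB3, was at 136 and 95.3 FPKM (-0.48, adjusted p = 0.0667), and ITGB1 at 146 and 176 FPKM (adjusted p = 0.203). CD36, a receptor for both thrombospondin 1 and OX-LDL, had between 0 and 12 counts and was not detected. The 6 calls became 3 without Control replicate 2, without OX-LDL replicate 1 or without OX-LDL replicate 3, and 9 without OX-LDL replicate 2. In the same fits the 2991 calls over all genes became 1161, 1262, 1163 and 2943, so the fewer calls were not particular to this list. SDC1, CALR and LRP8 were called in all 6 fits without a library, ITGB3 and ITGA3 in 3 each and ITGA4 in 1.

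The list of SIRP relatives and of proteins that act with CD47 or SIRPA held 20 genes, of which 13 were tested, 5 rose and 1 fell (median log2 fold change 0.33). BNIP3, a mitochondrial death and mitophagy protein that binds the CD47 tail and is also a known hypoxia target, was at 16.0 ± 1.4 FPKM in Control and 57.5 ± 3.5 in OX-LDL (log2 fold change 1.88, SE 0.10, adjusted p = 0.000365). Its rise was larger than that of any member. The ubiquilins UBQLN2 (5.87 to 10.6 FPKM, 0.88, adjusted p = 0.00234) and UBQLN1 (25.8 to 36.2 FPKM, 0.52, adjusted p = 0.0163), which tie CD47 to the cytoskeleton, rose as well, as did the inhibitory G protein subunit GNAI2 (15.7 to 24.0 FPKM, 0.65, adjusted p = 0.00402). The phosphatases that SIRPA recruits went in opposite directions, PTPN6 up (0.58, adjusted p = 0.0291) and PTPN11 down (71.2 to 56.7 FPKM, -0.30, adjusted p = 0.0209). QPCTL, the enzyme that modifies CD47 for SIRPA binding, was at 3.11 and 3.82 FPKM (adjusted p = 0.16). SIRPB1, SIRPB2, SIRPG and SIRPD were under the tested minimum, so SIRPA was the only tested gene of its family. The 6 calls became 3 without OX-LDL replicate 1 or without OX-LDL replicate 3, while the 2991 calls over all genes became 1262 and 1163. BNIP3, UBQLN2 and GNAI2 were called without each library in turn. PTPN11 lost its call when replicate 1 or 2 of Control, or replicate 1 or 3 of OX-LDL, was left out (adjusted p up to 0.0766) and with the replicate block (0.0701), PTPN6 was called in 1 of the 6 fits (adjusted p up to 0.0917) and UBQLN1 in 2 (up to 0.0643).

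Genes of the nitric oxide pathway that thrombospondin 1 is known to limit were mostly under the tested minimum, with 5 of 13 tested, 0 higher and 1 lower (median log2 fold change 0.20). DESeq2 gave the same numbers, as did an unadjusted p under 0.05 in edgeR. The nitric oxide synthase genes NOS1, NOS2 and NOS3 and the VEGF receptor gene KDR had at most 8 counts in any library. GUCY1A2, a subunit of the soluble guanylate cyclase, fell from 1.30 ± 0.039 to 0.714 ± 0.050 FPKM (log2 fold change -0.83, SE 0.10, adjusted p = 0.00507), while its other subunit genes GUCY1A1 (1.47 and 2.02 FPKM, adjusted p = 0.42) and GUCY1B1 (10.8 and 10.1 FPKM, adjusted p = 0.854) did not pass the test. The NADPH oxidase subunit genes CYBA (13.4 and 15.0 FPKM, adjusted p = 0.167) and CYBB (adjusted p = 0.443) did not pass it.

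In the list on storage and activation of latent TGF-beta, 14 of the 15 genes were analysed here and 13 were tested, 1 rose and 0 fell, with a median log2 fold change of 0.33. The gene that rose was the receptor TGFBR2 (16.5 ± 0.69 to 24.6 ± 3.5 FPKM, log2 fold change 0.61, SE 0.11, adjusted p = 0.0165). The ligand TGFB2 was at 29.4 and 36.1 FPKM (0.33, adjusted p = 0.103), the latent complex protein LTBP2 at 3.76 and 5.81 FPKM (0.66, adjusted p = 0.112) and the activating integrin subunit ITGB6 at 8.10 and 12.1 FPKM (0.61, adjusted p = 0.118). At an unadjusted p under 0.05 in edgeR, 6 were higher and 0 lower, but the share of all genes at that threshold is not given here. DESeq2 called 3 higher and 0 lower in this list. Over all 19510 genes it called 4430, of which 2292 were higher and 2138 lower. These counts are therefore not read as a rise of the list. In the main fit, the share called, 1 of 13, was under the 15.3% of all genes tested. No gene of this list was called without Control replicate 2 and 2 were called without Control replicate 3, while 1161 and 1993 were called over all genes.

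Of 55 other proteins with thrombospondin repeats, 28 were tested, 5 rose and 2 fell, and the median log2 fold change of -0.09 was near that of all genes tested. ADAMTS5, a protease of cartilage proteoglycans, fell from 0.990 to 0.348 FPKM (-1.47, adjusted p = 0.00976), and THSD4 fell too (-0.45, adjusted p = 0.0401). ADAMTS9 (7.90 to 11.5 FPKM, 0.57, adjusted p = 0.0108), ISM1 (1.27, adjusted p = 0.0298), CCN5 (1.14, adjusted p = 0.032), ADAMTSL4 (1.22, adjusted p = 0.0331) and ISM2 (2.16, adjusted p = 0.0497) rose, the last from 0.0586 to 0.264 FPKM. The Control mean of ISM2 was under the 0.1 FPKM minimum, and Control replicate 1 had 8 counts, under the detection limit. ISM2 therefore entered the test only through OX-LDL, where it was high, and its call is no support for a rise. The abundant matricellular genes CCN1 (339 and 357 FPKM, adjusted p = 0.486) and CCN2 (63.6 and 54.5 FPKM, adjusted p = 0.131) did not pass the test. The 7 calls became between 2 and 4 without each library in turn, except without OX-LDL replicate 2, when there were 5 (2 higher, 3 lower). Over all genes, the 2991 calls became between 1161 and 1993, except without OX-LDL replicate 2, when there were 2943. ADAMTS5 and ADAMTS9 were called in all 6 of those fits, and ADAMTSL4 in none (adjusted p between 0.0552 and 0.105).

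All 11 genes of the list of phagocytosis signals were tested, of which 2 rose and 1 fell, with a median log2 fold change of 0.02. CD24, which like CD47 restrains phagocytes, rose from 96.2 ± 27 to 232 ± 65 FPKM (log2 fold change 1.30, SE 0.26, adjusted p = 0.0208). CD24 has near-identical pseudogene copies with which reads may be shared, so its level is uncertain. The bridging protein gene GAS6 rose from 1.95 to 3.03 FPKM (0.67, adjusted p = 0.00829), and ANXA1, which marks dying cells for uptake, fell from 45.2 to 28.9 FPKM (-0.61, adjusted p = 0.0111). XKR8, a scramblase that exposes phosphatidylserine, was at 1.75 and 2.43 FPKM (adjusted p = 0.0768). CD274 (0.406 and 0.308 FPKM, adjusted p = 0.362) and B2M (84.6 and 89.1 FPKM, adjusted p = 0.486), whose proteins also restrain immune cells, did not pass the test. Without each library in turn, GAS6 and ANXA1 were called in all 6 fits and CD24 in 3.

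Among 6 cadherins and catenins, 2 rose and 0 fell (median log2 fold change 0.23). CTNNB1, the gene for beta-catenin, rose from 15.3 ± 0.44 to 22.4 ± 0.24 FPKM (log2 fold change 0.58, SE 0.06, adjusted p = 0.00295), and CDH2, the gene for N-cadherin, rose from 37.7 to 45.1 FPKM (0.29, adjusted p = 0.0367). JUP was at 4.54 and 5.71 FPKM (0.36, adjusted p = 0.171) and CTNND1 at 14.6 and 11.7 FPKM (adjusted p = 0.238). CDH1, the gene for E-cadherin, had 15, 66 and 73 counts in Control and 61, 34 and 71 in OX-LDL (adjusted p = 0.89), so a change in it was not detectable at its level of about 0.1 FPKM. Leaving out any of the 6 libraries reduced the 2 calls to 1, that of CTNNB1, and the adjusted p of CDH2 was then between 0.0539 and 0.115. None was lower at an unadjusted p under 0.05 in edgeR or in DESeq2 either.

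**Figure D4:**
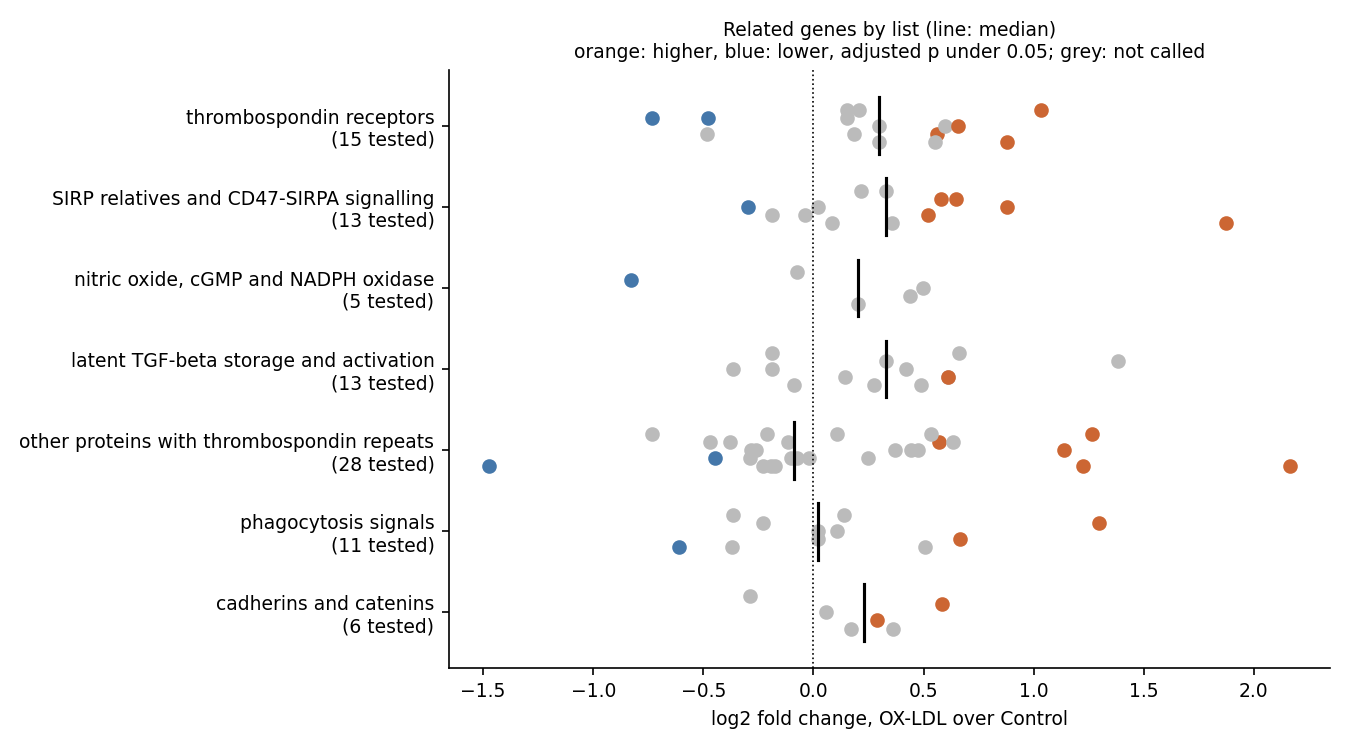
Fitted log2 fold change of OX-LDL over Control (horizontal axis) for the tested genes of the 7 lists (rows). Points are genes, orange when called higher, blue when called lower and grey when not called, and the black line is the median of the list. The medians lie between -0.09 and 0.33, and genes called in both directions occur among the receptors, the signalling proteins, the thrombospondin-repeat proteins and the phagocytosis signals.

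The genes whose levels followed THBS1 most closely over the 6 libraries were SH3GLB1, ALDH18A1, VIM, WBP4 and HMMR, each with a Pearson r of 0.999 among the 3924 genes compared. VIM, the gene for the mesenchymal filament protein vimentin, was at 97.1 ± 8.6 FPKM in Control and 214 ± 24 in OX-LDL (log2 fold change 1.17). The fitted log2 fold change was 1.11 for HMMR, a hyaluronan receptor gene, 0.76 for ALDH18A1, a gene of proline synthesis, 0.64 for SH3GLB1 and 0.24 for WBP4, all under the 1.51 of THBS1. For CD47 the most similar genes were B4GALT1, CCNB2, CPNE3, RTRAF and PTGFRN, with r between 0.997 and 0.998 and log2 fold changes between 0.21 and 0.68. These correlations are descriptions over 6 points that share the 2 groups, so most of each r is the difference between the groups.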

How the data were processed

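RNA of HK-2 cells was measured in 3 Control and 3 OX-LDL libraries, grouped by their labels. Per the labels, poly(A) RNA was made into libraries that mark the second strand and sequenced as read pairs. The submitters' processing notes name cutadapt 1.9, HISAT2 2.0.4, StringTie 1.3.4d, edgeR, DESeq2 and GRCh38, without roles. The authors deposited 1 table with estimated counts, which are whole numbers not scaled for library size and were used without rounding. The deposited FPKM values are scaled to transcript length and library size, and 0 counts are listed at 0.0001. No value column was left unmapped. Of 58552 gene identifiers shared with GENCODE 29, 81.2% had identical coordinates, and coordinates are those of the deposited table. The chi-square per gene between libraries of a group was 15.7 to 27.3, so none was a copy of another. No batch is named. The study's methods describe cell experiments performed independently, without saying that each library came from a separate experiment. The p-values therefore measure the spread between these libraries, which may be technical. Detection limits cover counting error only.

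Genes averaging 0.1 FPKM or more were fitted with edgeR 4.0.16 (TMM, glmQLFit, glmQLFTest, group as the only term) in R 4.3.3. SE was obtained from the fold change and the F statistic of each gene. Ratios and shares were compared with two-sided exact permutation tests. Alternatives were DESeq2 1.42.0, other scalings and minimums, limma 3.58.1 on log2(FPKM + 0.1, 1 or 0.01), a replicate block and leaving out each library. The fits were first tested on simulated data. The members and lists were chosen with earlier results of these data known. Genes named were the members, genes overlapping them, at most 4 tested genes per list by smallest p, COMP, JUP and CDH1, and the 5 genes most correlated with THBS1 and with CD47 among genes averaging 10 FPKM or more. The other list genes named in the text, and the cell type markers singled out, were picked after their values were seen. Of the 137 list genes, 136 were in the table and the other was not analysed here. RefSeq promoter windows matched 5 of the 6 members.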

Additional observations from a re-analysis of the deposited data

How the results depend on the processing

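THBS1 and CD47 kept their direction and their call under the 10 alternative settings, and so did THBS2 except with the replicate block (log2 fold change 0.74, adjusted p = 0.0689). SIRPA and THBS3 were called in none of those 10 settings. Leaving out 1 library gave log2 fold changes of 1.40 to 1.61 for THBS1, 0.63 to 0.87 for THBS2, -0.54 to -0.29 for THBS3, 0.42 to 0.50 for CD47 and 0.08 to 0.21 for SIRPA. No result reversed. Deviations of same-numbered libraries correlated at -0.041, -0.0031 and 0.0356, and their best match was the same number in replicate 3 only. These values gave no sign of pairing by number, but with 3 libraries per group they cannot show that there was none. With the replicate block, the SE was smaller than in the main fit for THBS1 (0.068), THBS3 (0.096) and CD47 (0.073). It was larger for THBS2 (0.17) and SIRPA (0.11). With that block, the genes called in the whole table were 1636 in place of 2991, 0 in the TGF-beta list, 3 among thrombospondin-repeat proteins and 1 among cadherins and catenins. Leaving out 1 library gave between 1161 (without Control replicate 2) and 2943 genes called, and DESeq2 gave 4430. The same left 3 to 9 receptor genes, 3 to 5 of the SIRP and signalling list, 0 to 2 of the TGF-beta list, 2 to 5 of the thrombospondin-repeat list and 1 of the cadherins and catenins. DESeq2 called 3 TGF-beta genes, no minimum 1 cadherin or catenin, a minimum of 1 FPKM 3 thrombospondin-repeat genes (fewer genes tested), and limma 4 of them with each pseudocount. The causes of these shifts were not tested otherwise. Depth limits what can be said of THBS4 and CDH1, and 3 libraries per group limit every ratio to an exact p of 0.1 or more.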

Other observations

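In both groups, the library lowest in THBS1 was the highest in THBS3. In Control replicate 2, THBS1 was at 22.6 and THBS3 at 25.1 FPKM, and it was the only library in which THBS3 exceeded THBS1. In OX-LDL replicate 2, THBS1 was at 64.6 and THBS3 at 19.6 FPKM, the lowest and the highest of its group. The same OX-LDL library was the lowest of its group in CD47 (9.63 FPKM) and the highest in SIRPA (30.3 FPKM) and THBS2 (4.05 FPKM). This pattern was noticed in the data, rests on 3 libraries per group and was not tested. The libraries concerned carry the replicate number 2 in both groups, and whether they were paired is not stated.

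Among the other thrombospondin genes, the 250 bases before the RefSeq start of THBS2 held a TATAAA match, found in 10.7% of all windows, with its first base 29 bases before the start, and no GC box or CCAAT match. Of the THBS3 windows, the one nearest the deposited gene start held 2 CCAAT matches, at 129 and 78 bases before the start, and 1 GC box at 64 bases, the same 2 kinds of motif as in THBS1, and the other held 1 GC box and no CCAAT match. The THBS4 window nearest the deposited gene start held 1 GC box and 1 CACGTG match, which occurred in 6.34% of all windows. The other THBS4 window held 1 CCAAT match and no GC box or CACGTG match. Exons of another gene, MTX3, lie in the nearest THBS4 window, and exons of MTX1 in the farther THBS3 window. Matches are descriptions of the letters and were not tested as binding sites.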
